A study of Homo sapiens with 24 samples.

Results

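Canonical targets of the transcription factor p53 were followed in 2 human acute myeloid leukemia cell lines treated with a kinase inhibitor, a histone deacetylase inhibitor or both. The set was a list of 32 genes that p53 is known to switch on. Of these, 30 had a probe set of their own on the array, among 19775 genes that did, and BTG2 and FDXR were not analysed here. Each gene was represented by the probe set, naming that gene alone, with the highest mean log2 signal over the 24 arrays.

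p53 is held at a low level in unstressed cells, mainly by the ubiquitin ligase MDM2. When DNA is damaged or growth signals fail, p53 accumulates, binds response elements near its targets and raises transcripts that slow the cell cycle, aid DNA repair, alter metabolism or prepare apoptosis. Several targets, MDM2 among them, feed back to restrain p53 itself, and acetylation of p53 and of chromatin affects how strongly it acts.

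MV4-11 and MOLM-14 carry the FLT3-ITD mutation, which keeps the FLT3 receptor kinase active, and the study describes a normal FLT3 allele beside it in MOLM-14. Both were grown in RPMI1640 with 10% fetal bovine serum and exposed for 24 hours to DMSO as the control, to ABT-869 (an inhibitor of FLT3 and other receptor tyrosine kinases) at 3 nM, to SAHA (a histone deacetylase inhibitor) at 6 µM, or to the combination, for which the doses are not restated. There were 3 cultures per group, called biological replicates in the labels, with 1 Affymetrix U133 Plus 2.0 array each and 8 groups in all. Each line is a single cell line, so the comparisons describe these lines and no others, and the level of p53 protein was not analysed here.

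The values were linear signals scaled by the authors to a common trimmed mean, and the small number of arrays limits their precision. Array medians ran from 78.5 to 99.4 in MV4-11 and from 61.2 to 80.6 in MOLM-14. They were lower on the MOLM-14 SAHA arrays (61.2 to 65.1) than on the MOLM-14 DMSO arrays (69.2 to 79.3). The arrays farthest from the mean of their group, by 0.304 to 0.33 (SD, log2), were ABT-869 replicate 2 and combination replicates 2 and 3 in MV4-11, and combination replicate 1 and DMSO replicate 3 in MOLM-14. Of 8 myeloid markers, 7 read above 200 on every array, and the monocyte marker CD14 stayed between 4.1 and 54.6. Genes of other cell types were lower but not all dim, up to 808 for PAX5 and 422 for CD79A (B cell), 173 for CD3D (T cell), 230 for HBB (erythroid), 1025 for KRT18 and 580 for COL1A1 (epithelial and stromal). None of those 15 genes was called against DMSO.

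Some of the 8 myeloid markers moved with treatment, while CD14, CSF3R, SPI1 and CEBPA were not called against DMSO in any comparison. With ABT-869 in MOLM-14, 0 of the 8 were called. MPO, the granule enzyme myeloperoxidase, had means of 1404 with DMSO, 2924 with ABT-869, 1051 with SAHA and 761 with the combination in MV4-11, and of 2336, 2592, 376 and 341 in MOLM-14. It was called higher with ABT-869 in MV4-11 (log2 change 1.06) and lower with the combination in MV4-11 (-0.90) and with SAHA (-2.74) and the combination (-2.87) in MOLM-14. The integrin ITGAM was called higher with SAHA in both lines (0.84 and 1.002) and with the combination in MOLM-14 (0.91). The receptor CSF1R was called higher with ABT-869 (1.07) and SAHA (0.82), and LYZ with the combination (0.53), in MV4-11. The summed signal of the 8 markers was 38350 to 41440 with DMSO and 44790 to 50400 on the treated arrays in MV4-11, and 34990 to 37800 and 34610 to 38830 in MOLM-14. The part of these shifts in the results below was not tested.

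Few of the 30 targets moved with either drug alone in MV4-11, and 12 moved with the combination. A gene was called higher or lower at an adjusted p under 0.05 in limma, with Benjamini-Hochberg adjustment over all 54613 probe sets tested and no fold threshold. With ABT-869, 0 targets were higher and 1 was lower, where 0.516% and 0.779% of all genes were called higher and lower. With SAHA, 2 were higher and 0 lower, against 2.45% and 1.52% of all genes. With the combination, 9 targets (30%) were higher and 3 (10%) were lower, against 7.1% and 5.82% of all genes, or 11.5% and 9.01% of the 11955 genes above the median signal. The median change over the 30 targets was 0.06 on the log2 scale, beside -0.05 over all genes. In such bulk samples, fewer cells of a type and less RNA per cell cannot be told apart. The single-drug counts depended on the model, rising to between 5 and 6 for ABT-869 and between 5 and 9 for SAHA with a floor of 32, without dim probe sets, with limma-trend or in 1 fit over all arrays, whereas the combination count stayed between 10 and 14 under the alternatives other than leaving out single arrays.

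In MOLM-14, 0 targets were called with ABT-869, 5 with SAHA and 4 with the combination. For ABT-869 that was 0 in each direction in limma (3 at an unadjusted p under 0.05), and only 0.00506% and 0.0152% of all genes were called higher and lower. SAHA gave 2 higher (6.67%) and 3 lower (10%) targets, against 4.2% and 3.62% of all genes. Of genes above the median signal, SAHA gave 6.67% higher and 5.52% lower. The median change with SAHA was -0.11 beside -0.10 over all genes. The combination gave 3 higher (10%) and 1 lower (3.33%), against 4.72% and 4.18% of all genes. Of genes above the median signal, it gave 7.42% higher and 6.79% lower. The median change of the targets was 0.06 beside 0.00. Each count of 1 to 5 calls among 30 targets is small, so these shares are descriptions of the list.

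**Figure D1:**
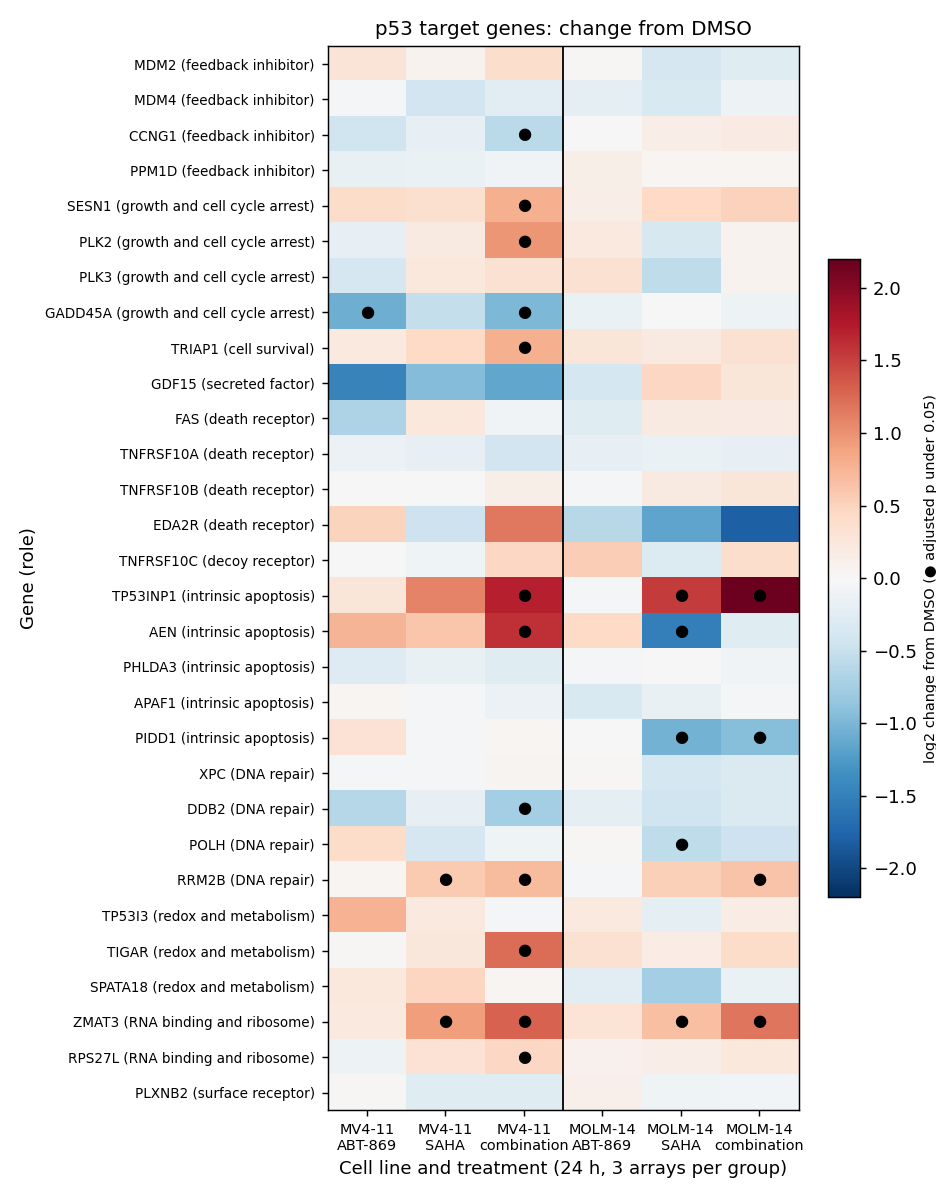
Log2 change from DMSO for each of the 30 p53 targets (rows, with role) under each treatment in MV4-11 and MOLM-14 (columns, 3 arrays per group); a dot marks an adjusted p under 0.05. ZMAT3, TP53INP1 and RRM2B are marked with the combination in both lines, and the strong colours of EDA2R, a dim gene, carry no dot.

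ZMAT3 was called higher in 4 of the 6 comparisons with DMSO. It encodes a zinc finger protein that binds RNA and regulates splicing and transcript stability downstream of p53. In MV4-11 its signals on the 3 arrays were 874, 728 and 696 with DMSO, 972, 863 and 827 with ABT-869, 1329, 1461 and 1571 with SAHA and 1880.1, 1831 and 1889 with the combination. The SAHA and combination arrays all lay above every DMSO array, and the ABT-869 arrays overlapped them. The rise was 1.9-fold with SAHA, a log2 change of 0.93 (SE 0.13, adjusted p = 0.0101), and 2.45-fold with the combination, a log2 change of 1.29 (SE 0.13, adjusted p = 0.000803). MOLM-14 gave 662, 716 and 982 with DMSO, 1208, 1216 and 1272 with SAHA and 1718, 1719 and 1817 with the combination, again without overlap with DMSO. The log2 changes there were 0.67 (SE 0.15, adjusted p = 0.0353) with SAHA and 1.18 (SE 0.15, adjusted p = 0.00487) with the combination. The gene has 5 probe sets, and all of them were called higher with the combination in MV4-11, by 0.89 to 1.29. In MOLM-14 all were higher, by 0.64 to 1.18, and 2 were called. The SAHA rise in MOLM-14 is the weak one. It ranged from 0.02 to 0.67 over the probe sets, and its adjusted p was between 0.0521 and 0.123 without any of the 12 MOLM-14 arrays except DMSO replicate 3 and ABT-869 replicate 1.

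RPS27L, a ribosomal protein paralog that modulates MDM2 and p53, moved less. Its combination arrays in MV4-11 (16077, 17088 and 16181) all lay above the DMSO arrays (12130.5, 12189 and 11464), a log2 change of 0.46 (SE 0.11, adjusted p = 0.0288). The call was lost without any DMSO or combination array, with adjusted p from 0.0567 to 0.0937, after centring on array medians (0.0898), with the replicate block (0.0765) and on the mean of its 3 probe sets (0.0555). Of the other 2 probe sets, 1 was called at 0.68 and 1 gave -0.03. In MOLM-14 the change was 0.23 (SE 0.11, adjusted p = 0.303).

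**Figure D2:**
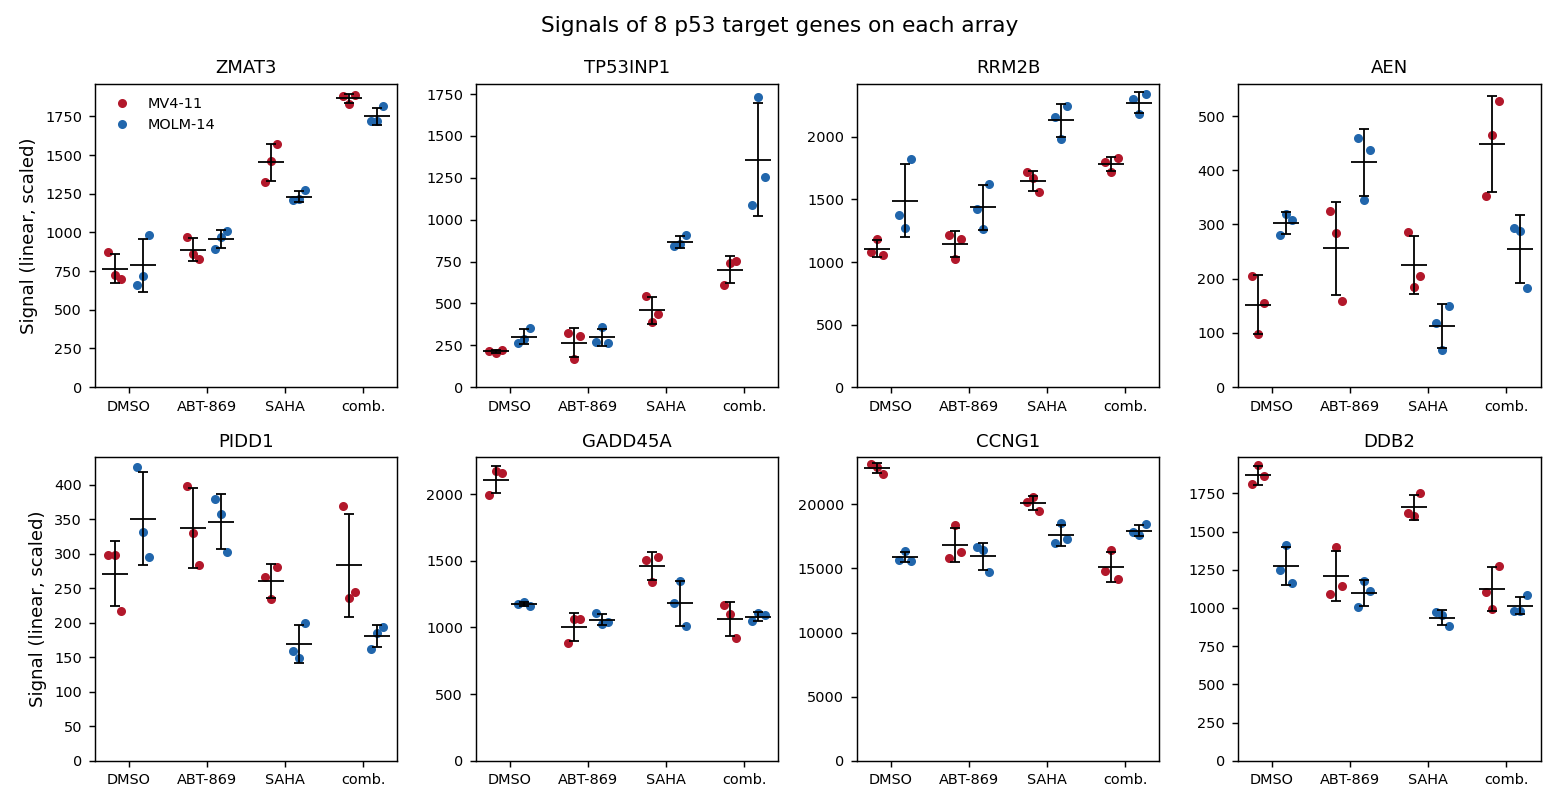
Signals (linear, scaled by the authors) of 8 p53 targets on each array by treatment, with MV4-11 in red and MOLM-14 in blue; bars are mean ± SD of 3 arrays. The SAHA and combination arrays of ZMAT3, TP53INP1 and RRM2B lie above the DMSO arrays in both lines, while GADD45A, CCNG1 and DDB2 lie lower with the combination in MV4-11.

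Among the 5 targets of the intrinsic apoptosis group, TP53INP1 had the largest rise with the combination in both lines. It encodes a stress protein that acts with kinases on p53 and also takes part in autophagy. MV4-11 signals were 213, 203 and 223 with DMSO, 324, 165 and 308 with ABT-869, 547, 391 and 437 with SAHA and 612, 740.1 and 754 with the combination. MOLM-14 signals were 266, 285 and 352, 270.3, 358 and 262, 841, 855 and 908 and 1084, 1734 and 1255 in the same order. SAHA and combination arrays lay above DMSO arrays in each line, and ABT-869 arrays overlapped them. The combination raised the signal 3.29-fold in MV4-11, a log2 change of 1.72 (SE 0.25, adjusted p = 0.00396), and 4.46-fold in MOLM-14, a log2 change of 2.16 (SE 0.20, adjusted p = 0.00273). SAHA alone gave 1.54 (SE 0.20, adjusted p = 0.007) in MOLM-14 and 1.09 (SE 0.25, adjusted p = 0.0604) in MV4-11, where it missed the threshold and was called with a floor of 32, without dim probe sets, with limma-trend, in 1 fit over all arrays (adjusted p 0.00668 to 0.0313) and without ABT-869 replicate 2 (0.0163). These values rest on 1 bright probe set. The other 2 are dim, with mean signals of 24.7 and 19.5, and in MV4-11 their combination changes were -0.23 and -2.83, and the mean over all 3 gave -0.45 (adjusted p = 0.479). In MOLM-14 that mean gave 1.09 with SAHA (adjusted p = 0.184) and 1.68 with the combination (adjusted p = 0.0537), so both calls were lost.

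AEN, an exonuclease that fragments DNA during apoptosis, behaved differently in the 2 lines. In MV4-11 it read 205, 97.3 and 155 with DMSO and 352, 465 and 527 with the combination, with no overlap and a log2 change of 1.60 (SE 0.35, adjusted p = 0.0223). In MOLM-14 it read 279.8, 319 and 308 with DMSO, 118, 69.2 and 149.9 with SAHA and 294, 288 and 183 with the combination. SAHA lowered it there by 2.82-fold, a log2 change of -1.50 (SE 0.29, adjusted p = 0.0222), whereas the combination arrays overlapped DMSO at -0.28 (SE 0.29, adjusted p = 0.704). The replicates of this gene spread widely. The MV4-11 call was lost without DMSO replicate 2 (0.0744) or 3 (0.0586) or combination replicate 2 (0.0644) or 3 (0.0704). The MOLM-14 call was lost without DMSO replicate 1 (0.063), 2 (0.0816) or 3 (0.0541) or SAHA replicate 1 (0.0502) or 2 (0.0585).

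PIDD1 encodes the death domain protein of the PIDDosome, which activates caspase-2. It fell in MOLM-14 from 426, 331 and 295 with DMSO to 159, 149 and 200 with SAHA and 163, 185 and 194 with the combination, without overlap. The log2 changes were -1.04 (SE 0.18, adjusted p = 0.0147) and -0.94 (SE 0.18, adjusted p = 0.0171), and in MV4-11 the combination gave 0.05 (SE 0.22, adjusted p = 0.934). Its other probe set gave -1.98 and -1.80 in MOLM-14, without a call. The SAHA call was lost when arrays were centred on their medians (0.0614) and without DMSO replicate 2 (0.0554) or SAHA replicate 2 (0.0606). On the mean of the gene's probe sets the SAHA call (0.085) and the combination call (0.12) were both lost. The combination call was also lost without DMSO replicate 1 (0.0607) or 2 (0.0564) or combination replicate 1 (0.0561) or 2 (0.0569). Leaving out the 4 arrays that stood apart lost it too (0.0516). PHLDA3, an inhibitor of AKT, and APAF1, the core of the apoptosome, had no call against DMSO. With the combination PHLDA3 gave -0.27 in MV4-11 and -0.08 in MOLM-14, while its other probe set gave 0.50 (adjusted p = 0.07) and 0.49 (adjusted p = 0.0967). APAF1 gave -0.12 and -0.05.

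The 4 targets tied to growth and cell cycle arrest split in MV4-11, where 2 rose and 1 fell with the combination. SESN1, a sestrin that restrains mTORC1, rose from 1227, 1301 and 1226 to 2209.8, 2066 and 2187, by 0.78 (SE 0.11, adjusted p = 0.00304). Its ABT-869 (1564, 1811 and 1579) and SAHA (1629.5, 1548 and 1631) arrays also lay above DMSO, without a call. PLK2, a polo-like kinase, rose from 122, 96.4 and 114 to 201, 193 and 261, by 0.97 (SE 0.22, adjusted p = 0.0265). This call was lost without DMSO replicate 1 (0.0561), 2 (0.0954) or 3 (0.0688) or combination replicate 1 (0.0574) or 3 (0.0801). In MOLM-14 neither was called with the combination, at 0.51 (SE 0.17, adjusted p = 0.138) for SESN1 and 0.07 (SE 0.26, adjusted p = 0.932) for PLK2. PLK3, a related kinase, had no call in either line, with combination changes of 0.33 and 0.08.

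GADD45A, a stress sensor that interacts with cell cycle and repair proteins, went the other way. In MV4-11 its arrays read 1993, 2175 and 2157 with DMSO, 886, 1064 and 1062 with ABT-869, 1508, 1344 and 1531 with SAHA and 1166, 1100.5 and 922 with the combination. All treated arrays lay below all DMSO arrays. ABT-869 lowered it 2.11-fold, a log2 change of -1.07 (SE 0.14, adjusted p = 0.0115), and it was the only target called with this drug. The combination change was -0.99 (SE 0.14, adjusted p = 0.00293), close to that of ABT-869 alone, and SAHA gave -0.53 (SE 0.14, adjusted p = 0.0866). The ABT-869 call was lost without DMSO replicate 2 (0.0575) or 3 (0.0506). In MOLM-14 the DMSO arrays read only 1178, 1189 and 1158, and the change with ABT-869 was -0.15 (SE 0.12, adjusted p = 0.826). TRIAP1, a mitochondrial protein linked to survival, rose with the combination in MV4-11 from 2679, 2868 and 3020.1 to 4396, 4975 and 5338, by 0.78 (SE 0.13, adjusted p = 0.00635).

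None of the 4 feedback inhibitors of p53 was called higher. MDM2, the ligase whose rise is the usual sign of p53 activity, read 2402, 2416 and 2341 with DMSO and 3099, 3511 and 2751 with the combination in MV4-11. The combination arrays lay above DMSO there, but the log2 change of 0.38 (95% interval 0.05 to 0.71) had an adjusted p of 0.16. MOLM-14 read 3045, 2561 and 2162 with DMSO, 1943, 2097 and 1913 with SAHA and 2094, 2238 and 2082 with the combination. There the changes were -0.37 (95% interval -0.68 to -0.06, adjusted p = 0.166) and -0.26 (-0.58 to 0.05, adjusted p = 0.361). Without dim probe sets or with limma-trend, MDM2 was called higher with the combination in MV4-11 (0.0468 and 0.0315) and lower with SAHA in MOLM-14 (0.0497 and 0.0304). The 10 probe sets of MDM2 differed in sign with the combination in MV4-11, and none was called. Both ends of their range, -1.13 and 0.61, came from dim probe sets with mean signals of 27.2 and 18.7. The probe set used (mean signal 2533) gave 0.38 and the next brightest (1279) gave 0.43. Those with mean signals of 162 and 59.5 gave -0.303 and -0.299.

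CCNG1, a cyclin that recruits a phosphatase to MDM2, fell in MV4-11. It read 23135, 22931 and 22396 with DMSO, 15824, 18357 and 16294 with ABT-869 and 14791, 16419.8 and 14169 with the combination, with every treated array below every DMSO array. The combination change was -0.60 (SE 0.11, adjusted p = 0.0122), and centring the arrays on their medians raised its adjusted p to 0.0689. The ABT-869 change of -0.44 had no call in the chosen fit. It was called with a floor of 32, without dim probe sets, with limma-trend and in 1 fit over all arrays (adjusted p 0.00332 to 0.0176). MDM4, a relative of MDM2 that blocks p53 transactivation, and PPM1D, a phosphatase that dephosphorylates p53, had no call. With the combination MDM4 gave -0.23 in MV4-11 and -0.10 in MOLM-14, and PPM1D gave -0.07 and 0.04. A further MDM4 probe set was called lower in MOLM-14 with SAHA (-0.48) and with the combination (-0.52).

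Of the 4 targets of DNA repair and nucleotide supply, RRM2B rose and DDB2 and POLH fell in some groups. RRM2B is the p53-induced small subunit of ribonucleotide reductase, which makes deoxynucleotides. MV4-11 arrays read 1079, 1185 and 1058 with DMSO, 1719.6, 1669.9 and 1561 with SAHA and 1798, 1719 and 1834 with the combination. MOLM-14 arrays read 1378, 1272 and 1823, 2159.7, 1986 and 2251 and 2303, 2180.4 and 2343 in the same order. In each line all SAHA and combination arrays lay above all DMSO arrays. The combination changes, 0.69 (SE 0.12, adjusted p = 0.00733) in MV4-11 and 0.63 (SE 0.16, adjusted p = 0.0493) in MOLM-14, and the SAHA changes, 0.58 (SE 0.12, adjusted p = 0.0384) and 0.53 (SE 0.16, adjusted p = 0.0875), lay between 0.53 and 0.69. The MV4-11 SAHA call was lost without any array of that line except ABT-869 replicate 2 and combination replicate 3 (adjusted p 0.0559 to 0.127). The MOLM-14 combination call was lost without any array of that line except DMSO replicate 3 (0.0579 to 0.162). Centring on array medians also lost the MV4-11 SAHA call (0.0739) and the MOLM-14 combination call (0.0795). The replicate block lost the MV4-11 SAHA call (0.109).

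DDB2, which recognises ultraviolet damage, fell with the combination in MV4-11 from 1811, 1932 and 1861 to 1106, 991 and 1273, by -0.74 (SE 0.14, adjusted p = 0.0123), and without DMSO replicate 2 the adjusted p was 0.0501. ABT-869 alone gave 1090.1, 1398 and 1144, also below DMSO, at -0.63 (SE 0.14, adjusted p = 0.0869). That change was called with a floor of 32, without dim probe sets, with limma-trend and in 1 fit over all arrays (0.0044 to 0.0166). In MOLM-14 the SAHA and combination arrays of DDB2 also lay below all DMSO arrays, at -0.44 and -0.32, without a call. Both were called with a floor of 32, without dim probe sets and with limma-trend (adjusted p 0.00605 to 0.0429). POLH, a polymerase that copies past damaged bases, fell in MOLM-14 with SAHA from 874, 737 and 683 to 518, 497 and 526, by -0.57 (SE 0.13, adjusted p = 0.035). The medians of those SAHA arrays were lower too, and after centring on the medians the change was -0.32 (adjusted p = 0.288). The POLH call was also lost without any of 9 MOLM-14 arrays (0.05 to 0.114), these being all except DMSO replicate 3, ABT-869 replicate 1 and combination replicate 1. XPC, which opens nucleotide excision repair, had no call, with combination changes of 0.07 in MV4-11 and -0.32 in MOLM-14.

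In the metabolic group, TIGAR, a phosphatase that lowers glycolytic flux, was called higher with the combination in MV4-11. Its arrays read 197, 254 and 294 with DMSO, 327, 214 and 221 with ABT-869, 275, 250.4 and 353 with SAHA and 673, 548 and 512 with the combination. The combination arrays lay above every DMSO array and the others overlapped DMSO, with a rise of 2.34-fold and a log2 change of 1.23 (SE 0.23, adjusted p = 0.0117). In MOLM-14 it read 361, 330 and 307 with DMSO, 500.5, 375 and 390 with ABT-869 and 439.7, 456 and 427 with the combination, again above DMSO, without a call at 0.33 (SE 0.16, adjusted p = 0.704) and 0.41 (SE 0.16, adjusted p = 0.19). The combination response was not called different between the lines (adjusted p = 0.0921). TP53I3, a quinone oxidoreductase, had no call (combination -0.02 and 0.16), and SPATA18, which acts in mitochondrial quality control, read under 32 on all 24 arrays, too dim to follow.

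No death receptor was called against DMSO in the chosen fit. FAS, TNFRSF10A and TNFRSF10B, which trigger the extrinsic apoptosis pathway, had combination changes of -0.07, -0.41 and 0.13 in MV4-11, and in MOLM-14 these were 0.17, -0.18 and 0.27. FAS read 781, 954 and 934 with DMSO and 509, 586 and 567 with ABT-869 in MV4-11, all lower, at -0.68 (SE 0.17, adjusted p = 0.118), and with a floor of 32, without dim probe sets, with limma-trend or in 1 fit over all arrays this was called (0.0061 to 0.0371). TNFRSF10A read 1715, 1687 and 1427 with DMSO and 1220.2, 1165 and 1229 with the combination in MV4-11, without overlap, and its adjusted p of 0.0713 was 0.00835 to 0.0386 under the same 4 settings. TNFRSF10B was called with the combination in MV4-11 with the floor alone (0.0238) and had means of 5589 ± 42.4 with DMSO and 5590 ± 185 with SAHA in MV4-11 (± SD, n = 3). EDA2R, a receptor of the same family, and TNFRSF10C, a decoy receptor, read under 32 on 11 and 8 arrays, and their replicates spread too widely to follow (SE 0.80 and 0.92 in MV4-11). GDF15, a secreted stress factor, read 215, 162 and 194 with DMSO and 105, 69.3 and 87.1 with the combination in MV4-11, without overlap, but the change of -1.14 (SE 0.42, adjusted p = 0.141) was not called. It was called without ABT-869 replicate 3 (0.034) or in 1 fit over all arrays (0.0436). PLXNB2, a semaphorin receptor, gave -0.26 and -0.06 with the combination, without a call.

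The combination was then set against each drug alone. Against ABT-869 in MV4-11, 7 targets (23.3%) were higher and 0 lower, where 3.14% and 2.9% of all genes were called higher and lower. Of genes above the median signal, 5.06% were called higher and 4.48% lower. The 7 targets were TP53INP1 (1.46), TIGAR (1.21), PLK2 (1.15), ZMAT3 (1.08), RRM2B (0.65), RPS27L (0.58) and TRIAP1 (0.56). The count was unstable and fell to 2 without ABT-869 replicate 2, ABT-869 replicate 3 or combination replicate 1, to 1 without combination replicate 2 and to 3 without combination replicate 3. In MOLM-14, TP53INP1 (2.18), ZMAT3 (0.87), RRM2B (0.67) and FAS (0.45) were higher than with ABT-869 and PIDD1 (-0.94) was lower, against 6.52% and 5.48% of all genes. These were 13.3% and 3.33% of the targets, beside 10.3% and 8.72% of genes above the median signal. That count of 5 fell to 2 without ABT-869 replicate 1 and to 3 without ABT-869 replicate 2, SAHA replicate 1 or 3, or combination replicate 2 or 3.

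Against SAHA, limma called 0 targets in either line. In MV4-11 the share of all genes was 0.263% higher and 1% lower, and 11 targets had an unadjusted p under 0.05. In MOLM-14 the share was 0% in both directions, and 5 targets had an unadjusted p under 0.05. Where the combination was tested against both single changes added together, limma also called 0 targets, with 3 at an unadjusted p under 0.05 in each line. Of all genes, 0.0253% departed upward and 0.0202% downward in MV4-11, and 0.00506% and 0% in MOLM-14. These comparisons share arrays with each other and with those against DMSO, so they were not tested against one another.

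The lines were compared by an interaction term in 1 fit over all 24 arrays. For the combination, the change was larger or more positive in MOLM-14 for CCNG1 (0.77 (SE 0.13, adjusted p = 0.00103)) and GADD45A (0.88 (SE 0.17, adjusted p = 0.00326)), and more negative for AEN (-1.88 (SE 0.46, adjusted p = 0.0185)) and PIDD1 (-0.99 (SE 0.28, adjusted p = 0.0406)). That made 2 higher and 2 lower among 30 targets, against 4.88% and 5.63% of all genes, or 7.74% and 9.18% of genes above the median signal. Without MOLM-14 combination replicate 3 only 2 calls were left. MDM2 was close, with a difference of -0.64 (95% interval -1.04 to -0.24, adjusted p = 0.051). The responses of TP53INP1 (0.44, 95% interval -0.24 to 1.12) and ZMAT3 (-0.12, -0.51 to 0.27) were not called different, although the intervals leave room for sizeable differences.

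For SAHA, AEN differed (-2.10 (SE 0.46, adjusted p = 0.0312)), making 0 higher and 1 lower against 1.02% and 1.04% of all genes. For ABT-869, GADD45A differed (0.92 (SE 0.17, adjusted p = 0.0209)), making 1 higher and 0 lower against 0.293% and 0.253%. The ABT-869 count fell to 0 without MV4-11 DMSO replicate 2 or 3, MV4-11 ABT-869 replicate 1 or MOLM-14 ABT-869 replicate 1. The SAHA count fell to 0 without MV4-11 DMSO replicate 2 or 3, any MV4-11 SAHA array, any MOLM-14 DMSO array or MOLM-14 SAHA replicate 2, and rose to 2 without MOLM-14 SAHA replicate 1.

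**Figure D3:**
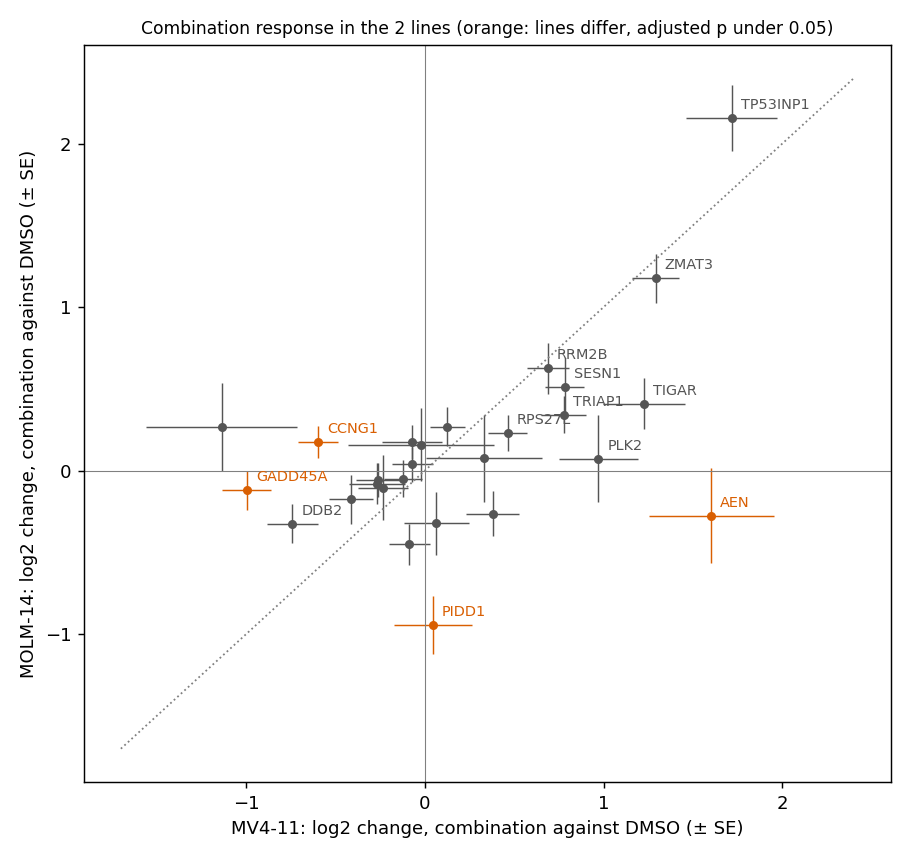
Log2 change with the combination against DMSO in MV4-11 (horizontal) and MOLM-14 (vertical) for 27 p53 targets, with SE bars, a dotted line of equal change and 3 dim genes left out; names mark genes called in either line, and orange marks a called difference between lines. TP53INP1, ZMAT3 and RRM2B lie near the dotted line, while AEN, PIDD1, GADD45A and CCNG1 lie away from it.

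The lines also differed with DMSO alone, where 4 targets (13.3%) were higher and 5 (16.7%) were lower in MOLM-14, against 8.19% and 6.51% of all genes. Of the 11955 genes above the median signal, 13.4% were called higher and 10.1% lower. Lower in MOLM-14 were GADD45A (-0.84 (SE 0.12, adjusted p = 0.0002)), DDB2 (-0.56), CCNG1 (-0.52), PHLDA3 (-0.46) and PLXNB2 (-0.36). AEN (1.05 (SE 0.33, adjusted p = 0.049)), POLH (0.41), RRM2B (0.41) and TRIAP1 (0.36) were higher. The 3 targets that fell with the combination in MV4-11 were all among those lower in MOLM-14 at the start. After the combination, GADD45A stood at 1063 ± 126 in MV4-11 and 1082 ± 31.5 in MOLM-14 (mean ± SD, n = 3), and DDB2 at 1124 ± 142 and 1016 ± 58.6, with overlapping arrays for both genes. CCNG1 stood at 15130 ± 1162 and 17960 ± 433, without overlap, so the line that was higher with DMSO was the lower one here. The MV4-11 DMSO arrays enter both the falls and the difference between lines. The DMSO count fell from 9 to 5 without MV4-11 DMSO replicate 1 or MOLM-14 DMSO replicate 2 or 3, to 4 without MV4-11 DMSO replicate 2 or MOLM-14 DMSO replicate 1, and to 3 without MV4-11 DMSO replicate 3.

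**Figure D4:**
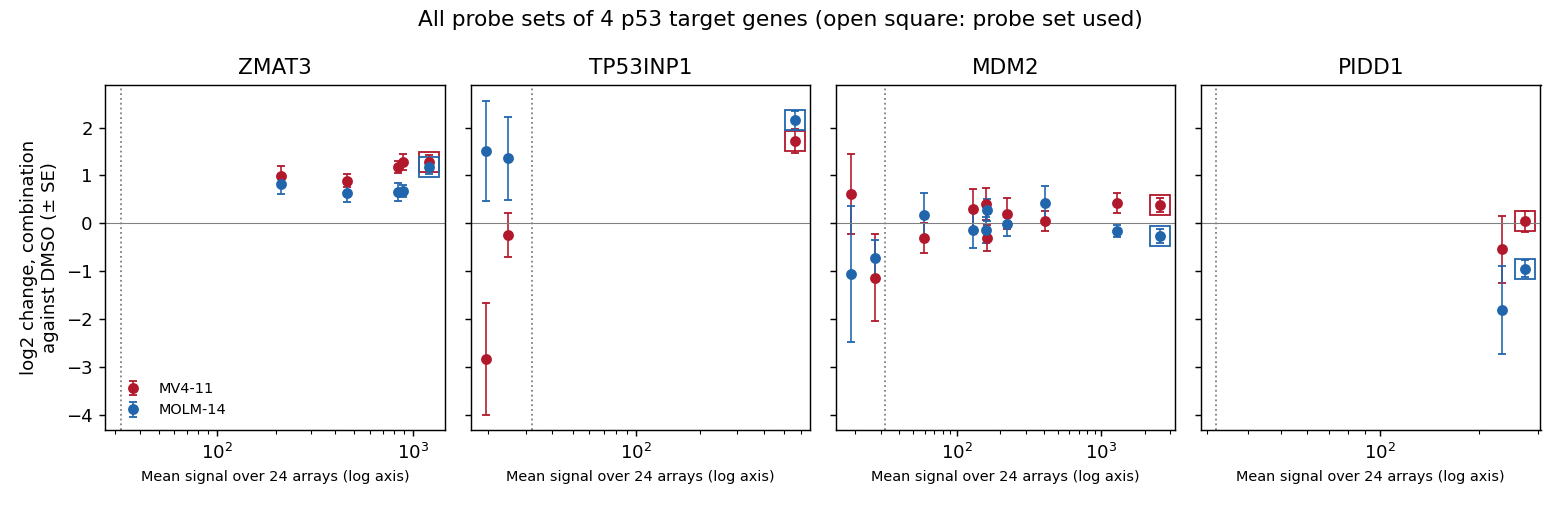
Log2 change with the combination against DMSO (± SE) for every probe set of ZMAT3, TP53INP1, MDM2 and PIDD1 against its mean signal over 24 arrays (log axis), with MV4-11 in red, MOLM-14 in blue, open squares on the probe set used and a dotted line at a signal of 32. All 5 ZMAT3 probe sets are above 0 in both lines, whereas in MV4-11 the 2 dim TP53INP1 probe sets lie below 0 and the 10 MDM2 probe sets on both sides of it.

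The promoters of the targets were searched for the p53 consensus decamer, the unit that makes up p53 response elements. Windows of 250 bases upstream of RefSeq start sites (GRCh38.p14) were available for 34 starts of 23 targets and were read on both strands. The decamer was found in 5 of the 34 windows (14.7%), beside 1170 of 22197 windows of protein-coding genes (5.27%). A match is a description of the sequence and not a bound site, and full response elements may lie elsewhere, such as in introns. All 5 windows with a match are printed. Of their genes, 4 were called higher with the combination in MV4-11, and FAS was not. In that comparison 30% of the 30 targets and 7.1% of all genes were called higher. The MV4-11 calls of PLK2, RPS27L and AEN were lost without some single arrays. In MOLM-14 none of the 5 genes was called higher with the combination, and AEN was called lower with SAHA. Further windows of SESN1 and FAS, at other start sites, held no match. A link between a match and a rise was not tested. The decamer is in capitals and each window runs 5′ to 3′ on the strand of its gene.
SESN1: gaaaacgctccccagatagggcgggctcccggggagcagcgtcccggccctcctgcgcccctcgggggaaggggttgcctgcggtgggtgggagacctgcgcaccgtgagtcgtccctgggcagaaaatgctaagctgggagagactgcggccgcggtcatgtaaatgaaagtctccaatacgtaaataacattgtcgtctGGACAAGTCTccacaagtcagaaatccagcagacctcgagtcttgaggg
PLK2: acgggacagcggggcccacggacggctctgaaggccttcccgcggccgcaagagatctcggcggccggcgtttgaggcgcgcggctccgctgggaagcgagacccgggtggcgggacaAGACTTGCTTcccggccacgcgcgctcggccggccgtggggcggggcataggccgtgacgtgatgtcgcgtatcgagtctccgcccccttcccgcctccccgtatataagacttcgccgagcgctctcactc
RPS27L: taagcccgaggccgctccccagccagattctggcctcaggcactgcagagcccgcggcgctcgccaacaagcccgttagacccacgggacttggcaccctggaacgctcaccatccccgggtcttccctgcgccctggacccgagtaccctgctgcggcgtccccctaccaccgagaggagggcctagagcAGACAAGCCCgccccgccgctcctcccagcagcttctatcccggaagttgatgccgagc
AEN: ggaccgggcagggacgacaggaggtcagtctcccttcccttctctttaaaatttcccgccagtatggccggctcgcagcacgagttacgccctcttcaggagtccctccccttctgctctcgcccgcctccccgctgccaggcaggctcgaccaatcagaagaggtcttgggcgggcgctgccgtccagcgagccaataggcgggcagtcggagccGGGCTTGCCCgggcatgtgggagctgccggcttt
FAS: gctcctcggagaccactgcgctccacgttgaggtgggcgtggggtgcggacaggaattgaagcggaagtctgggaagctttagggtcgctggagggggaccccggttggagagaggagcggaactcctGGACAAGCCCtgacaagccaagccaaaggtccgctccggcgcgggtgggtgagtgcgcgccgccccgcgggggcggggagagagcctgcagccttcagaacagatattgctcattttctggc
The windows are chr6:109008989-109009238 on the minus strand for SESN1, chr5:58460087-58460336 (minus) for PLK2, chr15:63157478-63157727 (minus) for RPS27L, chr15:88621090-88621339 (plus) for AEN and chr10:88991181-88991430 (plus) for FAS. The decamer begins 49 bases before the start site of the printed window in SESN1, 132 in PLK2, 59 in RPS27L, 34 in AEN and 122 in FAS. ZMAT3, TRIAP1 and TIGAR, which also rose, had no match in their windows. TP53INP1 and RRM2B, which rose too, had no window and were not searched.

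Other genes of the p53 pathway were read from 2 lists. Of 15 measured further targets, the combination gave 3 higher and 1 lower in MV4-11, where 7.1% and 5.82% of all genes were called, and 3 higher and 2 lower in MOLM-14, where 4.72% and 4.18% were. DRAM1, a lysosomal protein of autophagy, was called with SAHA and with the combination in each line, at 0.68 in MV4-11 and 0.95 in MOLM-14 for the combination. BAX, the effector of mitochondrial permeabilisation, rose in MV4-11 (0.93 (SE 0.13, adjusted p = 0.00324)), and the arrest gene CDKN1A rose in MOLM-14 (0.52 (SE 0.11, adjusted p = 0.024)). Both combination responses differed between the lines, by -0.79 (SE 0.17, adjusted p = 0.00724) for BAX and 0.62 (SE 0.15, adjusted p = 0.0146) for CDKN1A. PMAIP1, the BH3-only protein NOXA, fell in both lines, by -1.76 (SE 0.14, adjusted p = 0.000276) in MV4-11 and -0.70 (SE 0.13, adjusted p = 0.0171) in MOLM-14. It was also lower with ABT-869 alone in MV4-11, at -0.82 (SE 0.14, adjusted p = 0.0351).

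Of 21 measured regulators of p53, 2 were higher and 2 lower with the combination in MV4-11, and 1 was higher and 3 lower in MOLM-14, beside the same shares of all genes. The MV4-11 counts are near those shares. The checkpoint kinase CHEK1 fell in both lines (-1.03 (SE 0.15, adjusted p = 0.00365) and -1.25 (SE 0.13, adjusted p = 0.00312)), as did SIRT1, which deacetylates p53 (-0.63 (SE 0.12, adjusted p = 0.0133) and -0.83 (SE 0.13, adjusted p = 0.00784)). ATR, a kinase that signals replication stress, rose in MV4-11 (0.88 (SE 0.11, adjusted p = 0.00175)), and HIPK2, which phosphorylates p53, rose in MOLM-14 (0.60 (SE 0.12, adjusted p = 0.0228)). With SAHA alone 1 regulator was higher and 4 were lower in MOLM-14 (4.2% and 3.62% of all genes), and 0 and 1 in MV4-11 (2.45% and 1.52%). With ABT-869 alone limma called 0 regulators in either line, with 3 at an unadjusted p under 0.05 in MV4-11 and 2 in MOLM-14.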

How the data were processed

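RNA from 24 cultures (8 groups of 3) was hybridized to Affymetrix U133 Plus 2.0 arrays. The authors deposited intensity values, 1 linear signal per probe set, already summarised and scaled to a trimmed mean (2% off each end) that the values showed to be equal on every array. Their software was not given in the sources used here. A floor of 1, which 0.209% of signals lay under, was set before taking log2. After 62 controls were left out, 54613 probe sets were fitted with limma 3.58.1 in R 4.3.3, with 1 model for each line (12 arrays, 4 groups) and 1 over 24 arrays for differences between lines. P-values were moderated, two-sided and Benjamini-Hochberg adjusted over all 54613, with calls at 0.05.

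Of the probe sets, 41091 name 1 gene in the platform annotation (41037 matched by gene identifier), 1801 name several and 11721 are unnamed here. The members and lists were chosen with earlier results of these data known, so they are not independent evidence. All measured members are reported by role, with no filter on low signals. Promoter windows came from RefSeq. The alternatives were quantile normalization, centring on array medians, omission of dim probe sets, raising the floor to 32, the mean of a gene's probe sets, limma-trend, a replicate block, 1 fit over 24 arrays and leaving out each array. Chosen after seeing the data was leaving out 4 of the 5 arrays over 0.3 (SD, log2) from their group mean, these being MV4-11 ABT-869 replicate 2, MV4-11 combination replicate 3, MOLM-14 combination replicate 1 and MOLM-14 DMSO replicate 3. MV4-11 combination replicate 2 was kept so that its group held 2 arrays.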

Additional observations from a re-analysis of the deposited data

Results flagged for a closer look

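The response of 4 p53 targets differed between MOLM-14 and MV4-11 in a test of the difference itself, an interaction term in limma with adjustment over all probe sets. Of all genes, 0.293% were called higher and 0.253% lower for ABT-869, and 1.02% and 1.04% for SAHA. For the combination these shares were 4.88% and 5.63%, beside 6.67% of the targets in each direction. The ABT-869 and SAHA counts each fell to 0 when certain single arrays were left out. With ABT-869, GADD45A had a log2 change of -0.15 in MOLM-14 and -1.07 in MV4-11, a difference of 0.923 (adjusted p = 0.0209). With SAHA, AEN had a log2 change of -1.50 in MOLM-14 and 0.60 in MV4-11, a difference of -2.102 (adjusted p = 0.0312).

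With the combination, AEN had a log2 change of -0.28 in MOLM-14 and 1.60 in MV4-11, a difference of -1.877 (adjusted p = 0.0185). PIDD1 had changes of -0.94 and 0.05, a difference of -0.99 (adjusted p = 0.0406). CCNG1 had changes of 0.18 and -0.60, a difference of 0.773 (adjusted p = 0.00103), and GADD45A had changes of -0.12 and -0.99, a difference of 0.875 (adjusted p = 0.00326). CCNG1 and GADD45A also differed with DMSO alone, by -0.52 and -0.84, and the DMSO arrays enter both values. The part of that starting difference in the responses was not tested.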

How the results depend on the processing

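Of 24 called changes from DMSO, 8 kept their call under every alternative run. These were ZMAT3 with SAHA in MV4-11 and with the combination in both lines, and SESN1, TRIAP1, TIGAR, RRM2B and GADD45A with the combination in MV4-11. Of 156 changes that were not called, 26 were called under some alternative. The sign of 1 called change turned: TP53INP1 with the combination in MV4-11 was -0.45 as the mean of its 3 probe sets, of which 2 are dim. Otherwise the effect of a setting below is on the number of targets called, and its cause was not tested.

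Against DMSO, ABT-869 in MV4-11 (1 call) gave 6 with a floor of 32 or without dim probe sets, 5 with limma-trend or 1 fit over 24 arrays and 0 with the replicate block. SAHA in MV4-11 (2) gave 8 with the floor or limma-trend, 9 without dim probe sets, 5 in 1 fit and 1 with centring or the block. SAHA in MOLM-14 (5) gave 8 without dim probe sets, with limma-trend or in 1 fit, and 3 with the mean of probe sets. The combination in MOLM-14 (4) gave 7 with the floor, 8 without dim probe sets or with limma-trend, and 2 with the mean. Against ABT-869, the combination in MV4-11 (7) gave 11 with the floor, 3 with the block and 1 without 4 arrays that stood apart, a setting chosen after seeing the data. In MOLM-14 (5) it gave 8 without dim probe sets or with limma-trend and 3 with centring or the mean. Against SAHA (0), it gave 5 with the floor, 6 without dim probe sets or with limma-trend, 1 with the mean and 4 in 1 fit in MV4-11, and 1 with limma-trend in MOLM-14.

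For differences between the lines, ABT-869 (1) gave 2 with the floor, without dim probe sets or with limma-trend, and 0 with the block. SAHA (1) gave 0 with quantile normalization, centring, the block or the 4 arrays left out, 3 with the floor or without dim probe sets, and 2 with limma-trend. The combination (4) gave 7 without dim probe sets, and the DMSO groups (9) gave 3 with the block.

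Leaving out each array in turn gave 0 to 2 calls for ABT-869 in MV4-11 (0 without DMSO replicate 2 or 3 and 2 without ABT-869 replicate 3), 1 to 3 for SAHA in MV4-11 (1 without any array except ABT-869 replicate 2 and combination replicate 3) and 8 to 13 for the combination in MV4-11. In MOLM-14 it gave 1 to 5 for SAHA, with 1 without DMSO replicate 2 or SAHA replicate 2, 2 without DMSO replicate 1 or SAHA replicate 1, and 3 without ABT-869 replicate 2 or 3, SAHA replicate 3 or combination replicate 2 or 3. The combination there gave 2 to 4, with 2 without DMSO replicate 1 or 2 or combination replicate 1 or 2. The range was 1 to 6 for the combination against ABT-869 in MV4-11 and 2 to 6 in MOLM-14, 0 to 1 for the ABT-869 difference between lines, 0 to 2 for SAHA, 2 to 5 for the combination and 3 to 8 for DMSO. A group left with 2 arrays keeps the pooled spread of its fit.

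Deviations of same-numbered arrays from their group means correlated at -0.04 to 0.047 in MV4-11 and -0.02 to 0.081 in MOLM-14. In each line 0 of 18 pairs were over 0.1. All probe sets entered, dim ones too, so these values do not settle whether the cultures were paired by number. The replicate block moved the combination count in MV4-11 from 12 to 11, left 4 in MOLM-14 and gave the counts above elsewhere. Signals under 32 were 30.3% of all values, which limits EDA2R, TNFRSF10C and SPATA18.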
